A study of Mus musculus with 18 samples.

Results

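The genes described here are 39 proximal components of T cell receptor (TCR) signalling, listed by symbol and read from the row of that symbol in a matrix of 46983 mouse genes. All 39 were found, all 39 were above 0 in all 18 libraries, and all 39 were among the 9437 genes kept for testing (those that reached 10 in 4 or more libraries). They are the CD3 and zeta chains of the receptor, the CD8 coreceptor, Cd28, Cd5 and Cd6, the Src, Syk and Tec family kinases, the adaptors gathered around Lat, the enzymes that act on them, and the phosphatases, ubiquitin ligases and lipid kinases that restrain the pathway.

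CD8 T cells of 4 groups were sequenced in bulk, from extracted total RNA prepared with Smartseq2. Memory-phenotype cells (CD44hi) and naive cells (CD44lo) were taken from mice of genotype Dock2-Hsd/Hsd, also labelled Dock2-/-, with 5 libraries of each cell state. The same cell states were taken from wild-type (WT) mice, with 4 libraries of each. The strain field reads C57BL/6J for every library, whereas the descriptions of the Dock2-Hsd/Hsd libraries carry the name C57L6NHsd, so a difference between these genotypes cannot be told apart from one between substrains. No treatment was given, and age, tissue of origin and pooling are not given in the sources used here. Nor do the labels say whether the libraries of a group came from separate animals, so p-values measure the spread between libraries, which may be partly technical.

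As background, a peptide bound to MHC engages the TCR and the coreceptor together, and the coreceptor brings Lck to the CD3 and zeta chains, whose tyrosines Lck phosphorylates. Zap70 docks there and phosphorylates the scaffolds Lat and Lcp2, on which Tec family kinases activate Plcg1; calcium, Ras and NF-κB signals follow. Memory-phenotype CD8 T cells respond faster to the receptor than naive cells do. DOCK2, an exchange factor for the GTPase Rac, acts downstream of antigen and chemokine receptors in lymphocytes and is needed for their migration and for remodelling of the actin cytoskeleton.

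Promoters are shown for 3 of the 39 genes. Txk and Tec, 2 kinases of one family, lie 2938 bases apart in the same orientation on chromosome 5 and were both higher in memory-phenotype Dock2-Hsd/Hsd cells; Cd5 had the smallest p-value among the 39 genes in the comparison of naive cells between genotypes. Each line gives the 250 bases before the start of the gene on its own strand, taken from RefSeq (GRCm38.p6). Txk had 2 starts there, of which the nearest to the annotated gene start was used. GGAAGT, an extended form of the ETS core GGAA, is in capitals, and other GGAA sites are left in lower case.
Txk, chr5:72752778-72753027, minus strand: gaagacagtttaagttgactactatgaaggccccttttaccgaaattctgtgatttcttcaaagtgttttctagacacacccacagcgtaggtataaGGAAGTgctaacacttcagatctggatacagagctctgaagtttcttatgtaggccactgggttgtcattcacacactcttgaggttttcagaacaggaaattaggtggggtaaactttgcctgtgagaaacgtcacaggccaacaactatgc
Tec, chr5:72868449-72868698, minus strand: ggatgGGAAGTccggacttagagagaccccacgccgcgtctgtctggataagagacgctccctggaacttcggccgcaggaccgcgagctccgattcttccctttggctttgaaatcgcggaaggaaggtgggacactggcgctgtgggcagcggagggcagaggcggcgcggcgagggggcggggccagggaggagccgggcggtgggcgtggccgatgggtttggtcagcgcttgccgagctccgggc
Cd5, chr19:10738975-10739224, minus strand: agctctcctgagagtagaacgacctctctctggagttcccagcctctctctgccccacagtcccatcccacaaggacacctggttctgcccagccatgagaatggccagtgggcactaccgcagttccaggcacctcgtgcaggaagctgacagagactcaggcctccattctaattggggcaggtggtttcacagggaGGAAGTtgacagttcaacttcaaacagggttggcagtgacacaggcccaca
Each held 1 match to GGAAGT or its reverse complement ACTTCC; of 32851 mouse promoters of the same length, 19.7% held at least 1. None of the 3 held the RUNX core TGTGGT (14.05% of promoters) or the T-box core GGTGTGA (3.33% of promoters) on either strand. Of the 39 genes, 32 had a promoter in that collection; Cd28 and Sh2d2a did not.

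Library depth ran between 2215987 and 8257768 expected reads, of which 37.0 to 69.4% fell on the ribosomal gene Rn18s-rs5. Dock2, the gene named in the genotype, averaged 184 ± 83.4 in Dock2-Hsd/Hsd memory and 537 ± 206 in WT memory libraries, which did not overlap, and 243 ± 88.5 in Dock2-Hsd/Hsd naive and 388 ± 101 in WT naive libraries, which did (SD, n = 5 and n = 4). Neither difference passed the test (limma adjusted p = 0.121 and 0.841). The summed memory-state markers (7 genes) ran from 8228 to 20538 in Dock2-Hsd/Hsd memory, 824 to 1817 in Dock2-Hsd/Hsd naive, 9540 to 11296 in WT memory and 523 to 714 in WT naive libraries. The summed natural killer and innate lymphocyte markers (8 genes) also moved with cell state, at 1106 to 3459 in Dock2-Hsd/Hsd memory, 545 to 994 in Dock2-Hsd/Hsd naive, 1015 to 1391 in WT memory and 488 to 873 in WT naive libraries, with Ncr1 at 0 in all naive libraries. These sums were almost wholly Nkg7, a granule gene that CD8 T cells also express. Nkg7 stood at 1077 to 3417 in Dock2-Hsd/Hsd memory, 545 to 992 in Dock2-Hsd/Hsd naive, 939.5 to 1345 in WT memory and 486 to 872 in WT naive libraries. Ncr1 reached 5.80 at most. Fcer1g passed the test as higher in memory cells of both genotypes, Nkg7 in Dock2-Hsd/Hsd and Klrb1c in WT memory cells. Fcer1g reached 26.5 in Dock2-Hsd/Hsd memory, 6.11 in Dock2-Hsd/Hsd naive, 41.1 in WT memory and 1.81 in WT naive libraries. Klrb1c was at least 15.7 in WT memory and at most 12.3 in Dock2-Hsd/Hsd memory libraries, a difference that did not pass the test. The summed gamma delta and NKT markers (7 genes) ran from 19.5 to 31.0 in Dock2-Hsd/Hsd memory, 39.9 to 87.4 in Dock2-Hsd/Hsd naive, 51.4 to 81.3 in WT memory and 5.18 to 11.3 in WT naive libraries, so that they were lower in memory than in naive Dock2-Hsd/Hsd libraries, higher in memory than in naive WT libraries and lower in Dock2-Hsd/Hsd than in WT memory libraries, each without overlap. The part of either list in the values below was not tested. Sums of CD4 and regulatory T cell markers (6 genes) reached 88.2, those of B cell markers (8 genes) 59.3 and those of myeloid markers (9 genes) 48.9 at most. Those of erythroid and platelet markers (7 genes) reached 228 in Dock2-Hsd/Hsd naive library 2, and at most 35.1 in Dock2-Hsd/Hsd memory, 2.58 in WT memory and 8.38 in WT naive libraries. All 8 WT libraries expressed Xist, a marker of female cells, against 1 of 5 in either Dock2-Hsd/Hsd group (library 1 in both), so sex moved with genotype. A length index, the median log2 deviation of genes with at least 5000 bases of exon minus that of genes with at most 2000, ran from -1.04 in Dock2-Hsd/Hsd memory library 5 to 0.76 in WT naive library 1; it is taken up with the genotype comparison, where it moved with the values. In bulk RNA, fewer cells of a type and less RNA per cell cannot be told apart.

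Levels between genes can be set side by side only per kilobase of exon, here the union of all annotated exons of a gene. That union can be longer than the transcripts expressed, so genes with a long union may be understated. It is 1483 bases for Cd8b1 and 10594 for Sos1. On that scale Cd8b1 had the highest mean of the 39 genes in all 4 groups, with 2291 ± 972 in Dock2-Hsd/Hsd memory, 2093 ± 548 in Dock2-Hsd/Hsd naive, 1181 ± 169 in WT memory and 1796 ± 403 in WT naive libraries (SD, n = 5 and n = 4). The next 3 in every group were Cd3e, Lck and Cd3d, at 386 to 794 per kilobase, with ranges that overlapped between neighbours in the order. Sos1 had the lowest mean in every group, at 2.40, 3.78, 1.85 and 4.21 per kilobase in Dock2-Hsd/Hsd memory, Dock2-Hsd/Hsd naive, WT memory and WT naive libraries. All other values are of one gene across libraries, in the normalized units of the deposited matrix.

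**Figure D1:**
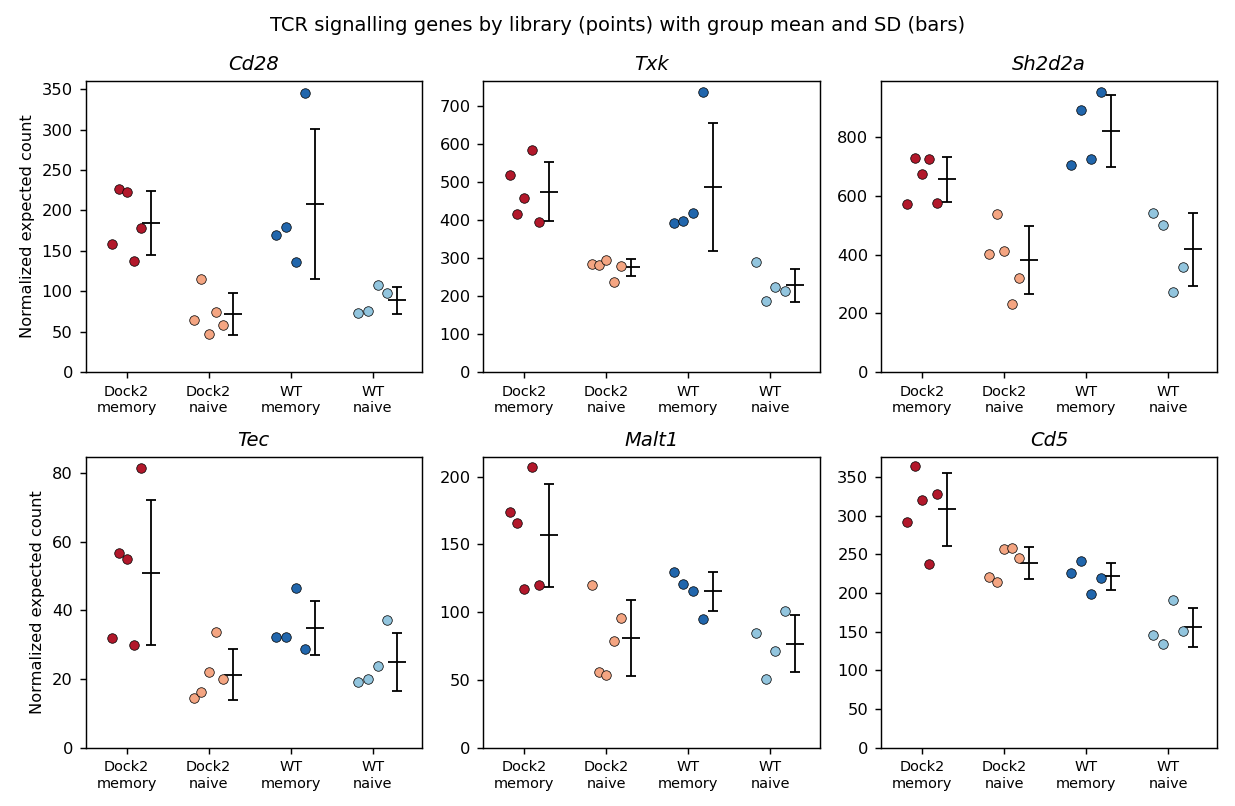
Normalized values of Cd28, Txk, Sh2d2a, Tec, Malt1 and Cd5 in the 18 libraries (points, by group), with the group mean and SD (bars). Cd28, Txk and Sh2d2a are higher in every memory library than in any naive library of the same genotype.

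Memory-phenotype Dock2-Hsd/Hsd cells had more mRNA of Cd28, Txk, Tec, Sh2d2a and Malt1 than naive Dock2-Hsd/Hsd cells, by 0.77 to 1.39 on the log2 scale. Of WT cells, the memory-phenotype ones had more Cd28, Txk and Sh2d2a than the naive ones, by 1.01 to 1.15. None of the 39 genes was called lower in either genotype in this fit. Under 4 of the 32 alternatives 1 to 4 were called lower in WT cells, Lat in each, and under 3 of them 1 was called lower in Dock2-Hsd/Hsd cells, Cd8b1 or Rasgrp1. Log2 fold changes are differences of mean log2(value + 1), memory minus naive, from one limma fit over all 4 groups, and a gene was called at an adjusted p (Benjamini-Hochberg over 9437 genes) under 0.05. In Dock2-Hsd/Hsd cells 5 of the 39 genes (12.8%) were called higher and none lower, against 2.82% of all 9437 genes called (1.77% higher and 1.05% lower). In WT cells 3 of 39 (7.69%) were called higher and none lower, against 2.52% of all genes (1.88% higher and 0.646% lower). At an unadjusted p under 0.05 the counts were 11 higher and 2 lower in Dock2-Hsd/Hsd cells, where 13.4% of all genes passed, and 8 higher and 5 lower in WT cells, where 12.1% did. The median log2 fold change of the 39 genes was -0.02 in Dock2-Hsd/Hsd cells, where that of all genes was -0.01, and 0.12 in WT cells, where that of all genes was -0.02.

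Among the surface receptors, Cd28, the main costimulatory receptor of T cells, had the largest of the called differences in both genotypes. It stood at 158, 226, 223, 137 and 178 in Dock2-Hsd/Hsd memory libraries 1 to 5, against 64.6, 115, 46.6, 74.6 and 58.7 in Dock2-Hsd/Hsd naive libraries 1 to 5. In WT memory libraries 1 to 4 it was 169.9, 180.1, 137 and 345, against 72.7, 75.9, 108 and 98.2 in WT naive libraries 1 to 4. Memory and naive libraries did not overlap in either genotype, and WT memory library 4 was the highest of the 18. The log2 fold change was 1.39 ± 0.26 (SE) in Dock2-Hsd/Hsd cells (limma adjusted p = 0.00267) and 1.15 ± 0.29 in WT cells (limma adjusted p = 0.034). In Dock2-Hsd/Hsd cells the call held with each of the 18 libraries left out; in WT cells it was lost without any one of WT memory libraries 1, 2 and 4 and WT naive libraries 1, 2 and 4, with an adjusted p of up to 0.141.

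Cd5, a receptor that dampens TCR signals and whose surface level on naive T cells follows the strength of self-recognition, stood at 291, 364, 319.7, 237 and 328 in Dock2-Hsd/Hsd memory libraries, against 221, 214, 257, 258 and 245 in Dock2-Hsd/Hsd naive libraries. In WT memory libraries it was 226, 241, 199 and 219, against 146, 134, 191 and 151 in WT naive libraries. WT memory and WT naive libraries did not overlap, whereas those of Dock2-Hsd/Hsd cells did. Neither difference passed the test (0.35 ± 0.16, limma adjusted p = 0.33 in Dock2-Hsd/Hsd cells; 0.52 ± 0.18, adjusted p = 0.171 in WT cells). Cd6, a relative of Cd5, overlapped in both genotypes, with log2 fold changes of 0.13 ± 0.16 and 0.23 ± 0.18 in Dock2-Hsd/Hsd and WT cells.

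The chains of the receptor itself did not pass the test in either genotype. Cd3e, the CD3 epsilon chain, stood at 2016, 2115, 2339, 2869.6 and 1734 in Dock2-Hsd/Hsd memory libraries, against 3033, 3239, 2978, 1783 and 2933 in Dock2-Hsd/Hsd naive libraries. In WT memory libraries it was 1870.2, 3239.8, 2471 and 3010.4, against 3072, 2240.3, 1769 and 2109 in WT naive libraries. The groups overlapped in both genotypes, and Dock2-Hsd/Hsd naive library 4 lay apart from its group. Cd3d, the delta chain, was 826, 925, 1157, 799 and 1748 in Dock2-Hsd/Hsd memory libraries, against 795, 898, 791, 1321 and 965 in Dock2-Hsd/Hsd naive libraries. It was 689, 639, 781 and 695 in WT memory libraries, against 559.9, 784, 1109 and 844 in WT naive libraries. Both pairs of groups overlapped, and Dock2-Hsd/Hsd memory library 5 was the highest of all.

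Cd3g, the gamma chain, was 561, 641, 914, 421 and 1236 in Dock2-Hsd/Hsd memory libraries, against 750.1, 608, 635, 914 and 827 in Dock2-Hsd/Hsd naive libraries. It was 484, 454, 543 and 500.0 in WT memory libraries, against 510.4, 699.8, 928 and 723 in WT naive libraries. Only WT memory libraries 1, 2 and 4 lay below every WT naive library, so these groups overlapped as well. Cd247, the zeta chain with the most signalling motifs of the complex, was 606, 742, 759, 824 and 688 in Dock2-Hsd/Hsd memory libraries, against 848, 940.1, 1074, 741 and 845 in Dock2-Hsd/Hsd naive libraries. It was 529, 545, 429.7 and 809 in WT memory libraries, against 790.2, 884, 760.4 and 693 in WT naive libraries. In both pairs the memory mean was the lower one, by a log2 fold change of -0.29 ± 0.18 (limma adjusted p = 0.506) in Dock2-Hsd/Hsd cells and -0.47 ± 0.20 (adjusted p = 0.32) in WT cells. The 95% intervals of the other 3 chains reached from -0.79 to 0.63 in Dock2-Hsd/Hsd cells and from -1.06 to 0.73 in WT cells.

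Cd8a and Cd8b1 encode the coreceptor that binds MHC class I and carries Lck. Cd8a was 772, 779, 1021, 945 and 1565 in Dock2-Hsd/Hsd memory libraries, against 1040.2, 839, 853, 1363 and 1583 in Dock2-Hsd/Hsd naive libraries. It was 666, 648, 646 and 612 in WT memory libraries, against 857, 1032, 906 and 927 in WT naive libraries. The WT groups did not overlap, with memory lower, while the Dock2-Hsd/Hsd groups did. Cd8b1 was 2022, 3065, 4486, 2135 and 5276 in Dock2-Hsd/Hsd memory libraries, against 2981, 2540.0, 2172, 3669 and 4162 in Dock2-Hsd/Hsd naive libraries. It was 1487, 1593, 1923 and 2002 in WT memory libraries, against 1808, 2827, 3206 and 2814 in WT naive libraries. All WT naive libraries except library 1 were above every WT memory library. Neither gene passed the test (Cd8a -0.16 ± 0.21, limma adjusted p = 0.792, and -0.53 ± 0.23, adjusted p = 0.355, in Dock2-Hsd/Hsd and WT cells; Cd8b1 0.06 ± 0.27, adjusted p = 0.954, and -0.58 ± 0.30, adjusted p = 0.468).

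Of the first kinases of the pathway, none passed the test. Lck, the Src family kinase that starts the cascade, was 1839, 1740.0, 2183, 1847 and 4019 in Dock2-Hsd/Hsd memory libraries, against 1552, 1444, 1293, 1995 and 2033 in Dock2-Hsd/Hsd naive libraries. It was 1223, 1321, 1466 and 1039 in WT memory libraries, against 1009, 1483, 1479 and 1486 in WT naive libraries. Memory library 5 of the Dock2-Hsd/Hsd mice was the highest, and both pairs of groups overlapped. Fyn, the second Src family kinase of T cells, was 79.9, 104, 87.7, 108 and 74.3 in Dock2-Hsd/Hsd memory libraries, against 55.5, 57.1, 65.0, 50.5 and 54.8 in Dock2-Hsd/Hsd naive libraries. It was 114, 57.9, 76.1 and 76.9 in WT memory libraries, against 80.9, 85.0, 74.1 and 72.3 in WT naive libraries. The Dock2-Hsd/Hsd groups did not overlap (0.66 ± 0.19, limma adjusted p = 0.076) and the WT groups did (0.02 ± 0.22, adjusted p = 0.991). The difference between these 2 fold changes was 0.65 ± 0.29, which did not pass the test (adjusted p = 0.819).

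Zap70, the Syk family kinase that binds the phosphorylated chains, was 538, 495, 517, 469.9 and 648 in Dock2-Hsd/Hsd memory libraries, against 393, 385, 373, 392 and 383 in Dock2-Hsd/Hsd naive libraries. It was 437, 565, 535 and 532 in WT memory libraries, against 448, 374, 342 and 379 in WT naive libraries. Every Dock2-Hsd/Hsd memory library was above every Dock2-Hsd/Hsd naive one, and 1 WT memory library fell below the highest WT naive one. The log2 fold change was 0.46 ± 0.14 in Dock2-Hsd/Hsd cells (limma adjusted p = 0.11) and 0.42 ± 0.16 in WT cells (adjusted p = 0.251), with a difference of 0.04 and a 95% interval of -0.41 to 0.49.

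Of the Tec family kinases, which phosphorylate Plcg1, Txk was called in both genotypes and Tec in Dock2-Hsd/Hsd cells. Txk (also called Rlk) stood at 518, 417, 457, 586 and 396 in Dock2-Hsd/Hsd memory libraries, against 286, 282, 295, 236 and 279 in Dock2-Hsd/Hsd naive libraries. In WT memory libraries it was 392, 397, 418 and 739, against 289, 186, 224 and 215 in WT naive libraries. No memory library was as low as a naive one of its genotype, and WT memory library 4 was the highest. The log2 fold change was 0.77 ± 0.19 in Dock2-Hsd/Hsd cells (limma adjusted p = 0.0267) and 1.05 ± 0.21 in WT cells (adjusted p = 0.00556). The WT call held with each library left out; the Dock2-Hsd/Hsd call was lost without any one of memory libraries 1, 3 and 4 and naive libraries 1, 2, 4 and 5 of that genotype, with an adjusted p of up to 0.0616.

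Tec, its neighbour on chromosome 5, had a mean level per kilobase of exon of 13.6 in Dock2-Hsd/Hsd memory libraries, where Txk had 43.4, and of 6.69 in WT naive libraries, where Txk had 20.8. Its values were 32.0, 56.8, 55.0, 29.8 and 81.4 in Dock2-Hsd/Hsd memory libraries, against 14.5, 16.3, 22.0, 33.7 and 19.9 in Dock2-Hsd/Hsd naive libraries. It was 32.3, 32.1, 46.4 and 28.8 in WT memory libraries, against 19.3, 19.9, 23.8 and 37.3 in WT naive libraries. Naive library 4 of either genotype lay inside the memory range. Tec rose in Dock2-Hsd/Hsd memory cells by 1.18 ± 0.31 (limma adjusted p = 0.0396) and did not pass the test in WT cells (0.49 ± 0.34, adjusted p = 0.645), and the difference between these fold changes was not called (0.69 ± 0.46, adjusted p = 0.819). The Dock2-Hsd/Hsd call held in 8 of the 18 single-library omissions; without memory library 5, the highest, the adjusted p was 0.131 (log2 fold change 0.99), and with the length index as a term the log2 fold change was 0.89 (adjusted p = 0.0701).

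**Figure D2:**
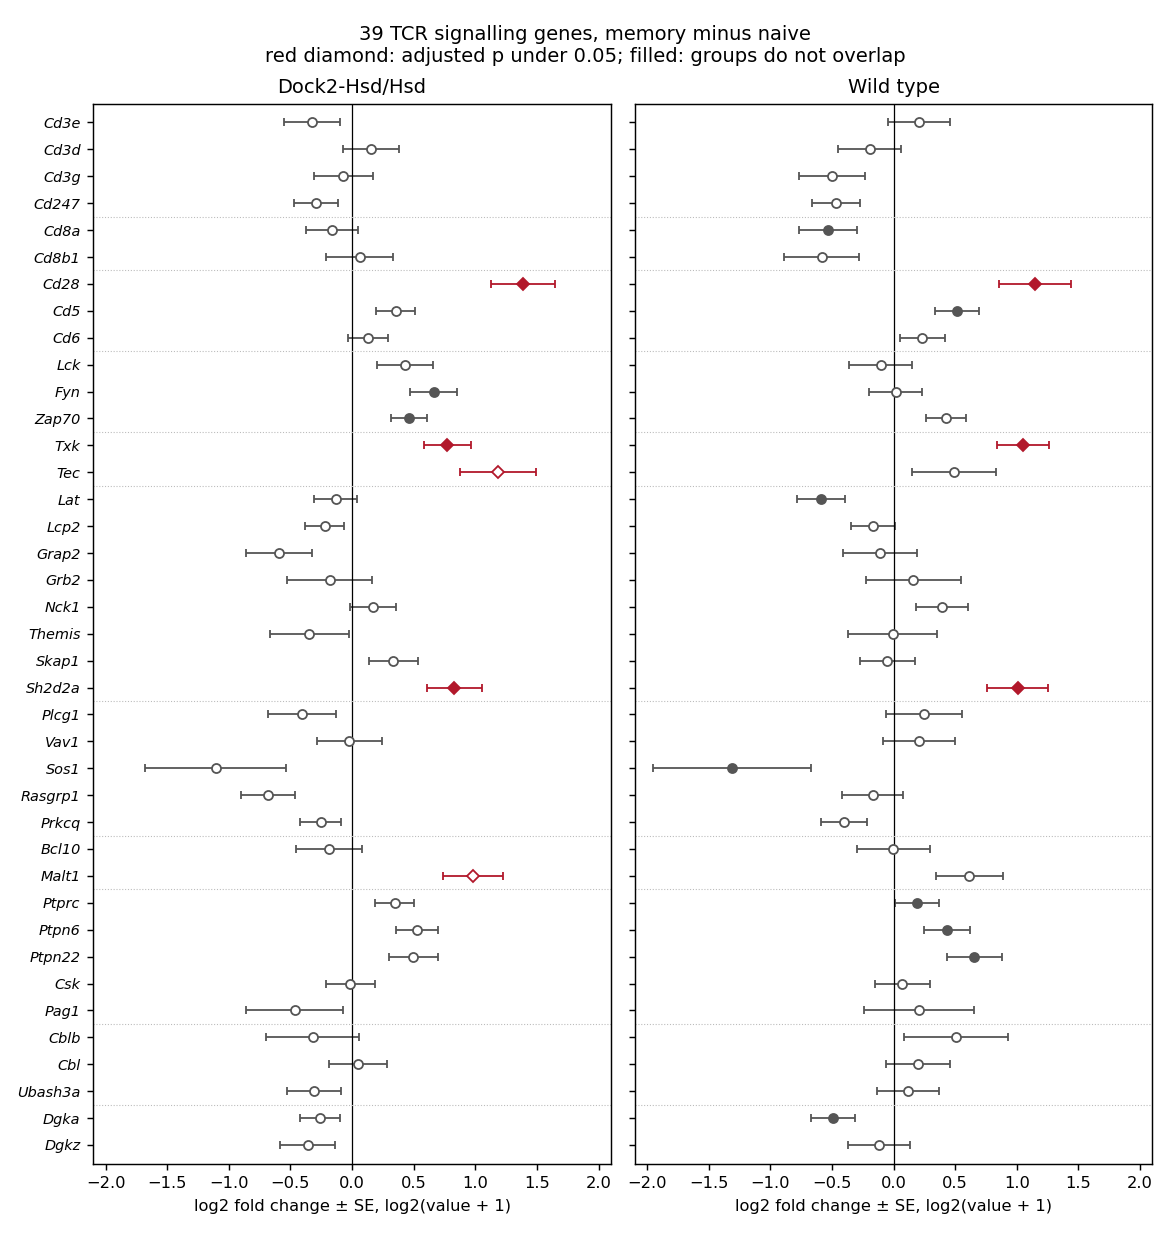
Log2 fold change, memory minus naive, of each of the 39 genes in Dock2-Hsd/Hsd cells (left) and WT cells (right), with bars of 1 SE; genes with an adjusted p under 0.05 are marked. Cd28, Txk and Sh2d2a are marked in both panels and lie to the right of 0, and Tec and Malt1 are marked in the Dock2-Hsd/Hsd panel, with differences between the panels of 0.69 and 0.37 that were not called.

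Of the 8 scaffolds and adaptors, Sh2d2a was called in both genotypes. It encodes TSAd, an adaptor that binds Lck and is found in activated T cells. It stood at 573, 729.6, 674, 727 and 574 in Dock2-Hsd/Hsd memory libraries, against 401, 539, 414, 230.3 and 319 in Dock2-Hsd/Hsd naive libraries. In WT memory libraries it was 706, 891, 726 and 955, against 540.3, 501, 273 and 359 in WT naive libraries. Every memory library was above every naive library of its genotype. The log2 fold change was 0.83 ± 0.22 in Dock2-Hsd/Hsd cells (limma adjusted p = 0.0465) and 1.01 ± 0.25 in WT cells (adjusted p = 0.0281). The Dock2-Hsd/Hsd call held in 4 of the 18 single-library omissions (adjusted p up to 0.12); the WT call was lost without any one of WT memory libraries 2 and 4 and WT naive libraries 3 and 4 (up to 0.128).

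Lat, the membrane scaffold on which the signalling complex forms, was 422, 506, 557, 338 and 728 in Dock2-Hsd/Hsd memory libraries, against 523, 560.5, 469, 602 and 562 in Dock2-Hsd/Hsd naive libraries. It was 366, 392, 389 and 367 in WT memory libraries, against 525, 584, 623 and 552 in WT naive libraries. The WT groups lay well apart, with memory lower, and the Dock2-Hsd/Hsd groups overlapped. The log2 fold change was -0.13 ± 0.18 in Dock2-Hsd/Hsd cells (limma adjusted p = 0.803) and -0.59 ± 0.20 in WT cells (adjusted p = 0.155), a difference of 0.46 ± 0.27 (adjusted p = 0.819). Lat in WT cells was called lower under 4 of the 32 alternatives, including the one with the length index as a term (-0.60, adjusted p = 0.00407). Lcp2 (SLP-76), the cytosolic scaffold that joins Lat, was 213, 247, 258, 309.01 and 227 in Dock2-Hsd/Hsd memory libraries, against 280.1, 344, 324, 227 and 293 in Dock2-Hsd/Hsd naive libraries. It was 286, 367, 311.98 and 285 in WT memory libraries, against 379, 336, 329.8 and 355 in WT naive libraries. Both pairs overlapped, and neither passed the test (-0.22 ± 0.16 and -0.17 ± 0.18 in Dock2-Hsd/Hsd and WT cells). The other 5 adaptors of this role (Grap2, Grb2, Nck1, Themis and Skap1) overlapped between memory and naive libraries in both genotypes and had log2 fold changes between -0.59 and 0.34 in Dock2-Hsd/Hsd cells and between -0.11 and 0.39 in WT cells.

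Malt1, the paracaspase that works with Bcl10 to activate NF-κB, was 174, 166, 117, 207 and 120.3 in Dock2-Hsd/Hsd memory libraries, against 120.2, 55.9, 53.5, 78.6 and 96.0 in Dock2-Hsd/Hsd naive libraries. It was 129.7, 121, 116 and 95.2 in WT memory libraries, against 84.3, 50.8, 71.4 and 101 in WT naive libraries. Dock2-Hsd/Hsd naive library 1 and WT naive library 4 reached into the memory range. Malt1 rose in Dock2-Hsd/Hsd memory cells by 0.98 ± 0.25 (limma adjusted p = 0.0303) and was not called in WT cells (0.62 ± 0.27, adjusted p = 0.361), with a difference between these fold changes of 0.37 ± 0.37 (adjusted p = 0.851). Its call was lost without any one of Dock2-Hsd/Hsd memory libraries 1, 2 and 4 and naive libraries 2 and 3 (adjusted p up to 0.103). Its partner Bcl10 had log2 fold changes of -0.19 ± 0.27 in Dock2-Hsd/Hsd and -0.0016 ± 0.30 in WT cells.

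None of the 5 effector enzymes and exchange factors was called. Sos1, an exchange factor for Ras, had the lowest log2 fold changes of all 39 genes, -1.11 ± 0.57 in Dock2-Hsd/Hsd and -1.31 ± 0.64 in WT cells, with the widest errors. Its values ran from 1.77 to 51.1 in Dock2-Hsd/Hsd memory and from 25.5 to 62.5 in Dock2-Hsd/Hsd naive libraries, and from 9.45 to 36.1 in WT memory and 39.8 to 52.9 in WT naive libraries; the WT groups did not overlap. Rasgrp1, the diacylglycerol-activated exchange factor for Ras, had a log2 fold change of -0.68 ± 0.22 in Dock2-Hsd/Hsd cells (limma adjusted p = 0.124) and -0.17 ± 0.25 in WT cells (adjusted p = 0.874). Plcg1, which makes diacylglycerol and inositol trisphosphate, Vav1, an exchange factor for Rac, and Prkcq, the protein kinase C theta of the synapse, lay between -0.40 and -0.02 in Dock2-Hsd/Hsd cells and between -0.40 and 0.24 in WT cells.

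Among the genes that restrain or tune the kinases, Ptprc (CD45), Ptpn6 (SHP-1) and Ptpn22 had positive log2 fold changes in both genotypes, and no memory library of WT cells was as low as a WT naive one for any of the 3. Ptpn22, which removes activating phosphates from Lck and Zap70, was 296.4, 366, 335, 454 and 338 in Dock2-Hsd/Hsd memory libraries, against 180.0, 221, 360.5, 232 and 296.7 in Dock2-Hsd/Hsd naive libraries, and 399, 389, 389 and 627 in WT memory libraries, against 275, 302.4, 246 and 300.4 in WT naive libraries. The differences were 0.50 ± 0.20 (limma adjusted p = 0.261) and 0.65 ± 0.22 (adjusted p = 0.16) in Dock2-Hsd/Hsd and WT cells. Ptpn6 differed by 0.53 ± 0.17 (adjusted p = 0.118) and 0.43 ± 0.19 (adjusted p = 0.346), and Ptprc by 0.34 ± 0.16 and 0.19 ± 0.18. Csk, which adds the inhibitory phosphate to Lck, and Pag1, its membrane anchor, had groups that overlapped in both genotypes. So did the ubiquitin ligases Cblb and Cbl and the Sts protein Ubash3a, whose log2 fold changes lay between -0.32 and 0.05 in Dock2-Hsd/Hsd cells and between 0.12 and 0.50 in WT cells. Dgka, the diacylglycerol kinase that removes the activator of Rasgrp1, was 864, 753, 932, 850.4 and 862 in Dock2-Hsd/Hsd memory libraries, against 1080.2, 1043, 1197, 807 and 1016 in Dock2-Hsd/Hsd naive libraries. In WT memory libraries it was 800.0, 693, 901 and 1016, against 1199, 1367, 1181 and 1029.8 in WT naive libraries. The WT groups did not overlap, with memory lower (-0.49 ± 0.18, limma adjusted p = 0.208), and the Dock2-Hsd/Hsd groups did (-0.26 ± 0.16, adjusted p = 0.515).

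Memory and naive libraries did not overlap for 5 of the 39 genes in Dock2-Hsd/Hsd cells, all higher (Cd28, Fyn, Zap70, Txk and Sh2d2a), where 3.93% of all tested genes did not (2.35% higher and 1.58% lower). In WT cells 11 did not overlap, 7 higher (Cd28, Cd5, Txk, Sh2d2a, Ptprc, Ptpn6 and Ptpn22) and 4 lower (Cd8a, Lat, Sos1 and Dgka), where 8.27% of all tested genes did not (4.99% higher and 3.27% lower). Groups of 4 separate more readily than groups of 5, so these 2 counts are not comparable with each other. None of the 39 genes was called for the difference between the 2 memory-minus-naive fold changes, where 0.0318% of all tested genes were called (0.0106% higher and 0.0212% lower); 1 of 39, Fyn, had an unadjusted p under 0.05, against 5.21% of all genes, and with voom weights no member was called either.

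The wider pathway was read from 4 lists of other genes. Of the other receptor-proximal genes, 32 of 33 were tested; 3 were called higher and 2 lower in Dock2-Hsd/Hsd memory cells, where 1.77% and 1.05% of all genes were, and 2 higher and none lower in WT memory cells, where 1.88% and 0.646% were. Lax1, a membrane adaptor that dampens TCR signals, stood at 119, 135, 155, 112 and 188 in Dock2-Hsd/Hsd memory libraries, against 40.9, 36.0, 36.4, 35.3 and 54.8 in Dock2-Hsd/Hsd naive libraries. It was 128, 109, 156 and 155 in WT memory libraries, against 66.1, 65.1, 71.3 and 67.8 in WT naive libraries. Memory was higher without overlap in both genotypes, by 1.77 ± 0.19 (limma adjusted p = 3.91e-06) in Dock2-Hsd/Hsd cells and 0.99 ± 0.21 (adjusted p = 0.0103) in WT cells, and both calls held under all 32 alternatives. Sla (SLAP), an adaptor that promotes loss of the receptor from the surface, rose by 0.72 ± 0.18 (adjusted p = 0.035) in Dock2-Hsd/Hsd cells and 1.46 ± 0.21 (adjusted p = 0.000116) in WT cells. In Dock2-Hsd/Hsd memory cells the phosphatase gene Ptpn2 was also called higher (0.98 ± 0.26, adjusted p = 0.0473), and Sla2, a relative of Sla (-0.79 ± 0.17, adjusted p = 0.00739), and Cd226, an activating receptor (-0.94 ± 0.25, adjusted p = 0.0412), lower. The call of Sla2 held with each library left out, and those of Sla, Ptpn2 and Cd226 in Dock2-Hsd/Hsd cells held in 12, 6 and 6 of the 18 omissions.

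In the calcium and NFAT list 20 of 22 genes were tested and none was called in Dock2-Hsd/Hsd cells. At an unadjusted limma p under 0.05 there were 7 in Dock2-Hsd/Hsd cells and 5 in WT cells. In WT memory cells Ppp3cc, a catalytic subunit of calcineurin, was higher (1.59 ± 0.42, limma adjusted p = 0.0447) and Rcan3, a calcineurin regulator, lower (-3.17 ± 0.59, adjusted p = 0.00251). Rcan3 was near 0 in WT memory libraries, at 0.83, 0, 6.45 and 1.75, so the size of its change is uncertain. It was 12.7, 14.5, 33.5 and 32.7 in WT naive libraries. In the PI3K and Akt list 16 of 17 were tested and none was called in Dock2-Hsd/Hsd cells (6 at an unadjusted p under 0.05, and 6 in WT cells); in WT memory cells Rptor, a subunit of mTOR complex 1, was higher (1.98 ± 0.49, adjusted p = 0.0281) and Pdk1, which under this mouse symbol encodes a pyruvate dehydrogenase kinase and not the kinase of Akt, lower (-0.85 ± 0.22, adjusted p = 0.042). Of these 4 calls, that of Rcan3 held with each library left out but not with voom weights (adjusted p = 0.0993), and its log2 fold change ran from -3.98 to -1.95 over the alternatives; those of Rptor, Pdk1 and Ppp3cc held in 11, 8 and 4 of the 18 omissions. None of the 20 Ras and MAP kinase genes tested (of 26) was called by limma in either genotype, with an unadjusted p under 0.05 for 3 of them in Dock2-Hsd/Hsd cells and for 2 in WT cells; over all genes the unadjusted share was 13.4% in Dock2-Hsd/Hsd cells and 12.1% in WT cells. In limma no gene of the 4 lists was called in a comparison between genotypes; 25 of the 88 tested had an unadjusted p under 0.05 in memory-phenotype cells (28.4%, against 16.4% of all genes) and 7 in naive cells (7.95%, against 6.1%).

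Between genotypes, none of the 39 genes was called in either cell state. Among memory-phenotype cells 5 of all 9437 genes (0.053%) were called, 0.0318% higher and 0.0212% lower, and at an unadjusted p under 0.05 there were 5 higher and 4 lower among the 39, which is 23.1%, against 16.4% of all genes. Among naive cells 13 genes (0.138%) were called, 0.127% higher and 0.0106% lower, and 3 higher and 1 lower of the 39 (10.3%) had an unadjusted p under 0.05, against 6.1%. The voom fit called none of the 39 in either cell state. Groups did not overlap for 4 of the 39 genes in memory-phenotype cells, all higher in Dock2-Hsd/Hsd (4.44% of all genes, 2.06% higher and 2.38% lower), and for 4 in naive cells, 3 higher and 1 lower (2.71%, 1.46% higher and 1.25% lower).

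In memory-phenotype cells the 4 genes were Lck, Cd8b1, Cd8a and Cd3d, whose values in every library are given above. Lck averaged 2326 ± 961 in Dock2-Hsd/Hsd memory and 1262 ± 179 in WT memory libraries (SD, n = 5 and n = 4), a log2 fold change of 0.81 ± 0.24 (SE; limma adjusted p = 0.228). Cd8b1 averaged 3397 ± 1441 in Dock2-Hsd/Hsd memory and 1751 ± 249.97 in WT memory libraries (0.86 ± 0.29, adjusted p = 0.238). Cd8a averaged 1016 ± 325 and 643 ± 22.5 in Dock2-Hsd/Hsd and WT memory libraries (0.61 ± 0.22, adjusted p = 0.253), and Cd3d 1091 ± 393 and 701 ± 59.1 (0.58 ± 0.24, adjusted p = 0.273). Each was highest in Dock2-Hsd/Hsd memory library 5, and each Dock2-Hsd/Hsd memory library was above the 4 WT memory libraries. The 4 genes with an unadjusted p under 0.05 and a lower mean in Dock2-Hsd/Hsd memory cells were Plcg1 (-0.71 ± 0.29), Grap2, the Lat-binding adaptor GADS (-0.61 ± 0.28), Cbl (-0.56 ± 0.25) and Ubash3a (-0.55 ± 0.24), and their groups overlapped.

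**Figure D3:**
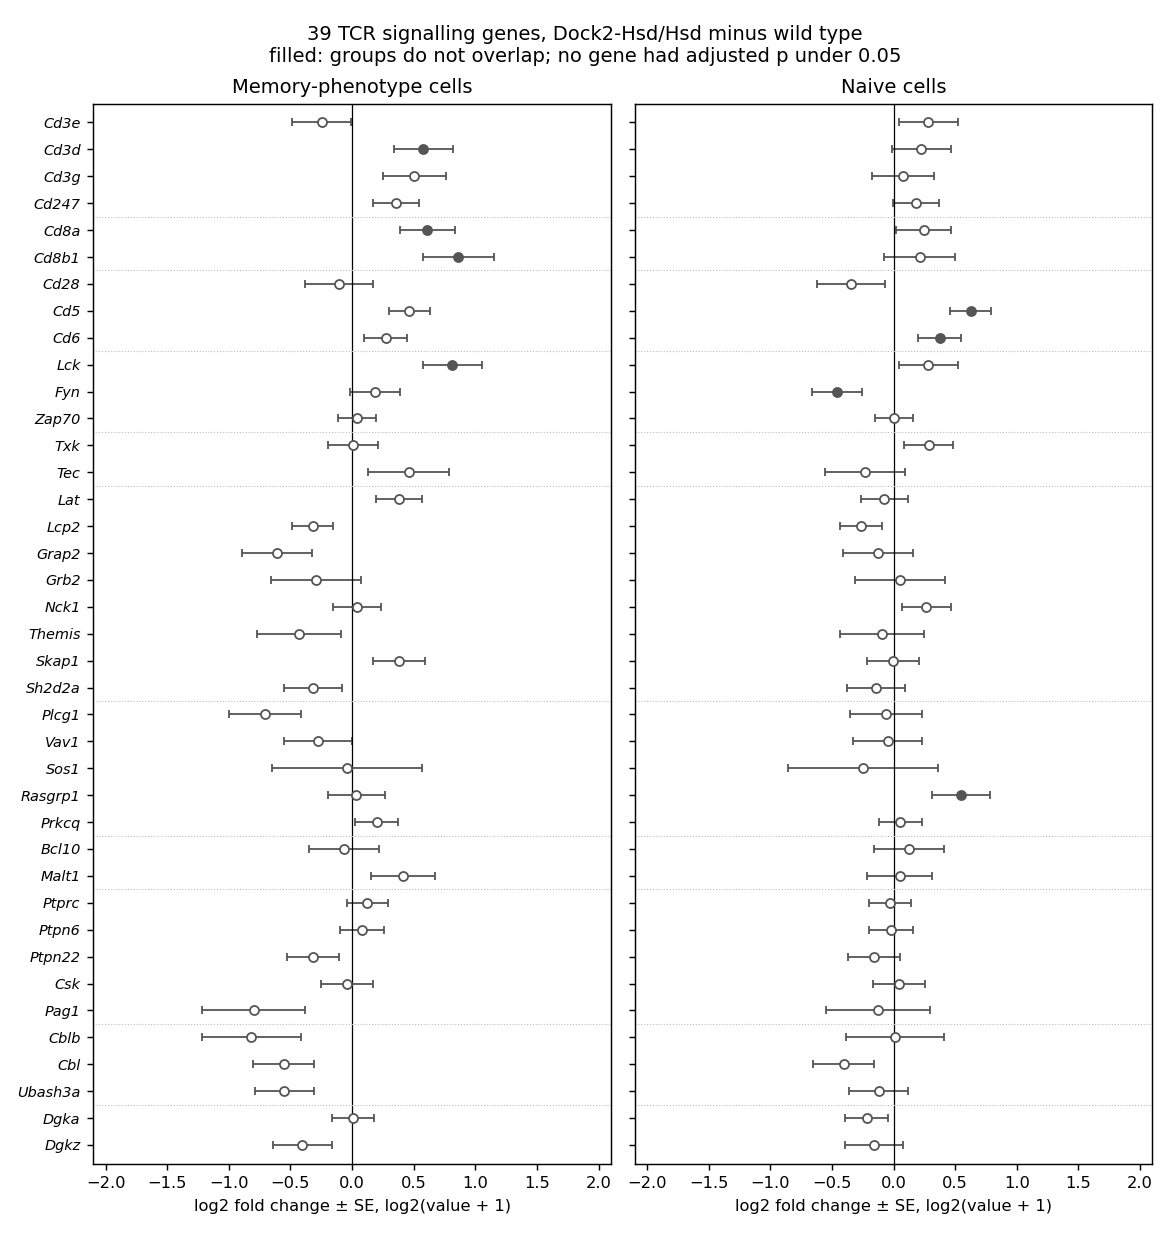
Log2 fold change, Dock2-Hsd/Hsd minus WT, of each of the 39 genes in memory-phenotype cells (left) and naive cells (right), with bars of 1 SE; filled points mark genes whose groups do not overlap. Lck, Cd8b1, Cd8a and Cd3d are filled on the left at 0.58 to 0.86, and Cd5, Cd6 and Rasgrp1 (0.38 to 0.62) and Fyn (-0.46) on the right; no adjusted p was under 0.05.

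These genes differ in length: the exons of Cd8b1, Cd3d, Lck and Cd8a cover 1483, 1815, 2929 and 3637 bases, and those of Grap2, Plcg1, Ubash3a and Cbl cover 6243, 7857, 11239 and 12345 bases. The length index differed between the memory libraries. It was 0.01, -0.33, -0.46, 0.27 and -1.04 in Dock2-Hsd/Hsd memory libraries 1 to 5, against 0.16, 0.41, 0.05 and 0.14 in WT memory libraries 1 to 4. Across the 39 genes, as a description, log2 exon length and the deviation from the group mean had a Pearson correlation of -0.65 in Dock2-Hsd/Hsd memory library 5 and 0.68 in library 4; these genes share a library and are not replicates. With the length index as a term in the fit, the difference of Dock2-Hsd/Hsd and WT memory cells was 0.45 for Lck (limma adjusted p = 0.555), 0.37 for Cd8b1 (0.596), 0.34 for Cd8a (0.682), 0.13 for Cd3d (0.796), -0.14 for Plcg1 and -0.14 for Cbl (0.856). Without Dock2-Hsd/Hsd memory library 5 and WT memory library 4, the libraries with the lowest and the highest share of Rn18s-rs5, it was 0.51 for Lck, 0.74 for Cd8b1, 0.42 for Cd8a and 0.39 for Cd3d. With sex as a term it was 0.65 for Lck, 0.53 for Cd8b1, 0.40 for Cd8a and 0.29 for Cd3d. These alternatives kept the sign of each of these genes and moved several by more than 1.5 times. The gamma delta and NKT markers also moved with genotype here, with sums of 19.5 to 31.0 in Dock2-Hsd/Hsd memory and 51.4 to 81.3 in WT memory libraries; their part was not tested.

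**Figure D4:**
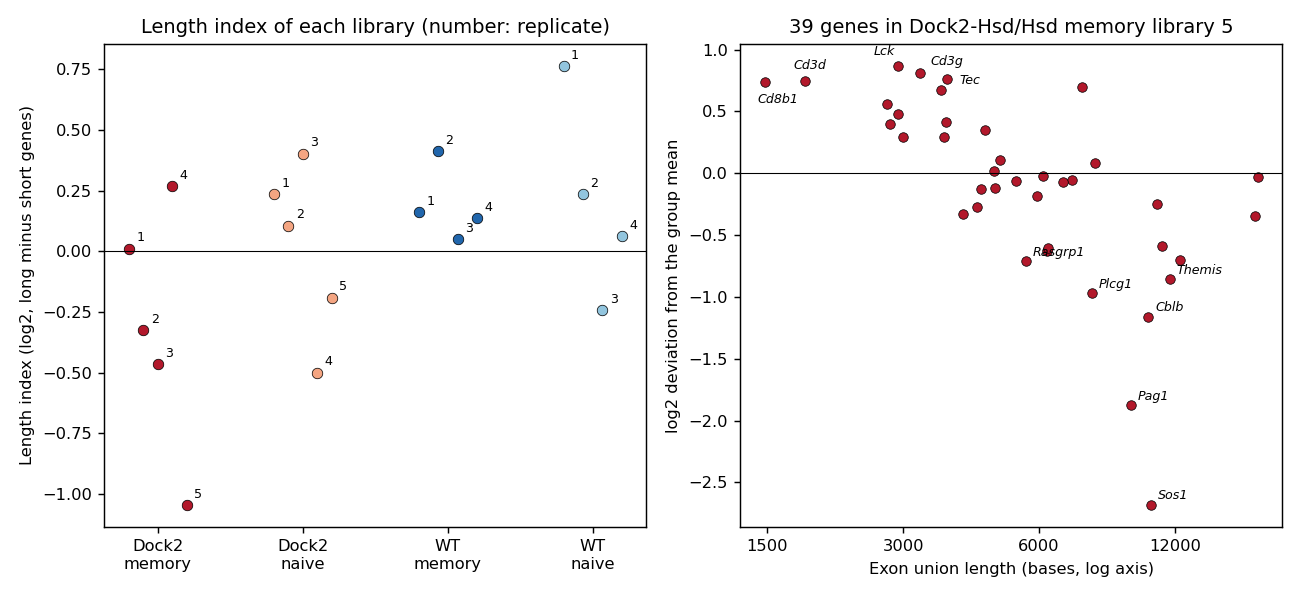
Left, the length index (log2 scale, long minus short genes) of each library, by group, with numbers giving the replicate. Right, each of the 39 genes in Dock2-Hsd/Hsd memory library 5, plotted as exon length (bases, log axis) against the log2 deviation from the mean of the 5 Dock2-Hsd/Hsd memory libraries; that library has the lowest index, -1.04, and genes with short exons such as Lck and Cd3d lie above 0 there while Pag1 and Sos1 lie below.

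In naive cells Cd5 had the smallest p-value of the 39 genes. It averaged 239 ± 20.5 in Dock2-Hsd/Hsd naive and 156 ± 25.0 in WT naive libraries (SD, n = 5 and n = 4), a log2 fold change of 0.62 ± 0.17 with a 95% interval of 0.28 to 0.97 (limma unadjusted p = 0.00131, adjusted p = 0.257). All 5 Dock2-Hsd/Hsd naive libraries were above all 4 WT naive libraries, whose maximum was 191. The 1 Dock2-Hsd/Hsd naive library that expressed Xist stood at 221, and a single library cannot separate sex from genotype. In memory-phenotype cells the Cd5 difference was 0.46 ± 0.17 (adjusted p = 0.253), and the 2 groups overlapped. Cd6 averaged 509 ± 58.5 in Dock2-Hsd/Hsd naive and 392 ± 38.7 in WT naive libraries (0.38 ± 0.17, adjusted p = 0.782). Rasgrp1 was 327, 450.4, 340.0, 294 and 323 in Dock2-Hsd/Hsd naive libraries, against 230.2, 282, 232 and 199.9 in WT naive libraries (0.55 ± 0.23, adjusted p = 0.729). Fyn, by contrast, was lower in every Dock2-Hsd/Hsd naive library than in any WT naive library (-0.46 ± 0.20, adjusted p = 0.744).

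Beside these values stands the state of the naive cells. The summed memory-state markers were higher in Dock2-Hsd/Hsd naive than in WT naive libraries without overlap (824 to 1817 against 523 to 714). Most of these sums was Ly6c2 and Il2rb, neither of which was called. Ly6c2 ran from 333 to 1082 in Dock2-Hsd/Hsd naive and from 242 to 330 in WT naive libraries. Il2rb overlapped, at 244 to 675 and 265 to 416. Of the 7 markers 3 with lower values, Tbx21, Ccl5 and Cxcr3, were among the 13 genes called in that comparison. Cd44, whose surface protein the labels use to name the cell states, was 3.64, 21.7, 0, 1.60 and 2.99 in Dock2-Hsd/Hsd naive libraries, against 6.06, 7.23, 9.78 and 3.39 in WT naive libraries; the groups overlapped and the difference did not pass the test (-0.84 ± 0.55, limma adjusted p = 0.929). The summed gamma delta and NKT markers (7 genes) ran from 39.9 to 87.4 in Dock2-Hsd/Hsd naive and from 5.18 to 11.3 in WT naive libraries. Trdc was called higher, while Blk and Zbtb16 were at 0 in all WT naive libraries and in all Dock2-Hsd/Hsd naive libraries except library 1. The part of either in the values of Cd5, Cd6, Rasgrp1 and Fyn was not tested. With the length index as a term the Cd5 difference was 0.58 (limma adjusted p = 0.0949), and with sex as a term it was 0.54 (adjusted p = 0.999).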

How the data were processed

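Total RNA of mouse CD8 T cells was prepared with a Qiagen RNAeasy kit and Smartseq2, per the labels' protocols; whether counting used strand is not given in the sources used here. As for software, the submitters' processing notes name bcl2fastq, FastQC, RSEM and the build mm10. The deposited matrix holds a normalized signal per gene: RSEM expected counts that the authors divided by 1 factor per library, as read from the values (factors 0.553 to 1.95). Since 59.5 to 69.3% of the recovered values above 0 were whole reads, no count model was run.

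Groups were taken from titles. On the scale log2(value + 1), limma 3.58.1 (R 4.3.3) was fitted (1 mean per group, 18 libraries, variance trend, 14 residual and 6.43 prior degrees of freedom, two-sided), to 9437 genes that reached 10 in 4 or more libraries. All 5 comparisons use this fit, so those that share a group share its libraries. Fold changes on this scale understate low genes. The scripts were tested on simulated data. Sequences and lengths came from RefSeq (GRCm38.p6) and GENCODE M21, which held 98.9% of the identifiers; tables were read with Python 3.11.15 and pandas 2.3.3.

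The 39 genes and all lists were chosen with earlier results of these data known. Given in every library were those of the 39 called in any comparison, the receptor chains, coreceptor, Cd28, Lck, Fyn, Zap70, Lat and Lcp2. So were genes whose groups do not overlap, up to 5 per comparison by smallest p, except Ptpn6 and Cd6. Cd6 is given by its mean, Sos1 by its range, and Ptpn6 and Ptprc by fold change. Of the other lists, up to 6 called genes per comparison were named. Some items are not reported here. Alternatives were 2 other pseudocounts, 2 other filters, 2 other scalings, voom, array weights, no variance trend, only the groups compared, a replicate block, a sex term, 2 libraries left out together, each library left out in turn, and, chosen after seeing the data, a length index term. The replicate origin, and the depth of 2215987 to 8257768 expected reads, limit precision.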

Additional observations from a re-analysis of the deposited data

Results flagged for a closer look

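For each of the 39 genes and each of the 4 groups, the highest and the lowest library were compared with the rest of their group. Of 156 such groups 8 had a library that stood apart by Dixon's 95% critical value, and chance flags about 1 in 20. Lck had 4019.36 in Dock2-Hsd/Hsd memory library 5, where the next highest of that group was 2183. It had 1009.27 in WT naive library 1, where the next lowest was 1479. Txk had 235.813 in Dock2-Hsd/Hsd naive library 4, where the next lowest was 279, and 738.749 in WT memory library 4, where the next highest was 418. Ptpn22 had 626.74 in that same WT memory library, next to 399. Cd3e had 1783.04 in Dock2-Hsd/Hsd naive library 4, next to 2933. Nck1 had 57.0687 in Dock2-Hsd/Hsd naive library 2, next to 77.8, and Bcl10 had 26.3888 in Dock2-Hsd/Hsd memory library 4, next to 54.3. WT memory library 4 and Dock2-Hsd/Hsd naive library 4 each carried 2 of the 8 values. No difference between the memory-minus-naive fold changes of the genotypes was called for any of the 39 genes.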

How the results depend on the processing

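No named result changed sign under any of the 32 alternatives that gave it a value (Rcan3 had none under the stricter filter). In WT cells the count of the 39 genes called for memory minus naive was 3, and 1 with no filter, with no variance trend, with voom weights, with only the groups compared or without WT memory library 4 and Dock2-Hsd/Hsd memory library 5 (Txk each time). It was also 1 with equal totals outside Rn18s-rs5 and mitochondrial genes (Lat, lower), 5 with array weights, 6 with quantile normalization (3 higher and 3 lower) and 8 with the length index as a term (4 higher and 4 lower). With each library left out it was 1 to 3. In Dock2-Hsd/Hsd cells the count was 5, and 2 with no filter, with no variance trend or with only the groups compared, and 1, Cd28, with equal totals; it was 2 to 5 with each library left out. Cd28 stayed called there under all 32. Between genotypes, and for the difference of fold changes, 0 were called under every alternative. Equal totals moved the median of all genes by about as much as that of the 39: it became -0.31 for memory minus naive in Dock2-Hsd/Hsd cells and -0.27 for Dock2-Hsd/Hsd minus WT in memory cells, where the 39 had -0.34 and -0.27.

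Replicate numbers were shared between cell states, but of 9 same-numbered pairs 3 correlated above 0.1 (-0.25 to 0.30), so they were not taken as pairs. That check does not decide whether same-numbered libraries share an animal, which the labels do not say. In Dock2-Hsd/Hsd cells the library that expressed Xist was library 1 of both states (2593 in memory and 2217 in naive). With the replicate block the count was 1 in both genotypes (Txk in WT, Cd28 in Dock2-Hsd/Hsd cells) and 0 between genotypes.

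Over all genes, calls moved beyond 1.5 times in these cases. For WT memory minus naive, 238 became 377 with array weights and 404 with the length index. For Dock2-Hsd/Hsd memory minus naive, 266 became 450 with array weights. For Dock2-Hsd/Hsd minus WT memory, 5 became 12 with a pseudocount of 5, 10 with no filter, 3 with the stricter filter, 11 with no trend, 40 with array weights, 3 with only the groups compared, 0 with sex as a term and 3 to 13 with a library left out. For naive cells, 13 became 6 with voom, 8 with only the groups compared and 3 with sex. For the difference of fold changes, 3 became 0 to 9. The causes were not tested.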
